A study of Mus musculus with 10 samples.

Results

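Long noncoding RNA (lncRNA) genes that are expressed in differentiating C2C12 cells were described here, and their levels were compared between cells with and without knockdown of *Fndc1*. A lncRNA gene was taken from the authors' gene table where its type was given as lincRNA or lncRNA alone and where its mean over all 10 libraries was at least 1 FPKM (fragments per length of transcript and size of library, so that levels of genes can be compared). *H19*, *Meg3*, *Rian* and *Mirg* were left out. The rule kept 261 of the 9635 lncRNA genes in the table, which holds 55359 genes in all, and 3864 of the lncRNA genes had at least 1 read. The genes were therefore chosen by their measured level, and the levels are given as a description. At the threshold, *Gm10503* (1.01 FPKM), *Gm47283* (1.02 FPKM) and *2900093K20Rik* (1.02 FPKM) lay just inside, and *Gm36236* (0.999 FPKM), *2810402E24Rik* (0.998 FPKM) and *1700069B07Rik* (0.997 FPKM) lay just outside.

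C2C12 is a mouse myoblast line whose cells fuse into myotubes when serum is reduced, and *Fndc1* encodes a secreted protein with fibronectin type III domains. The cells carried no edited allele. In 5 libraries they had been transfected with 100 nM of an siRNA against *Fndc1* (si-*Fndc1*), and in 5 libraries with 100 nM of a scrambled siRNA (si-Control). The sample labels place all of them at 4 days of differentiation, whereas the series text gives a time after transfection. The labels do not say whether the 5 libraries of a group came from separate cultures, so p-values measure only the spread between these libraries, and 1 siRNA sequence stands for the knockdown. RNA was selected by its poly(A) tail according to the series text, and the named kit does not mark the strand.

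Long noncoding RNAs are transcripts that are not translated into a known protein. Some are structural parts of the nucleus or silence a chromosome, some act in the cytoplasm, and others are the spliced precursors from which small nucleolar RNAs (snoRNAs) or microRNAs (miRNAs) are cut. Many lie opposite to a protein-coding gene, on the other strand, or share a start region with it. In muscle cells, lncRNAs are known both as hosts of muscle miRNAs and as regulators of differentiation.

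The si-Control libraries had totals of 66771605 to 75995168 counts, and the si-*Fndc1* libraries had 56332844 to 72839369. Libraries of the same group differed by more than counting error in all 20 pairs, with a chi-square of at least 37.3 per degree of freedom. *Fndc1* itself was at 27.8 ± 2.04 FPKM in si-Control and 20.9 ± 1.70 FPKM in si-*Fndc1* (SD, n = 5 each), which is 0.752 of the control level (edgeR's quasi-likelihood test, log2 fold change -0.40, SE 0.07, Benjamini-Hochberg adjusted p = 0.000934). The summed FPKM of 10 skeletal muscle markers ranged over 4140 to 4610 in si-Control, against 3880 to 4620 in si-*Fndc1*. Of these 10 markers, 3 were called higher and 1 was called lower in si-*Fndc1*, so the sum does not show every difference. The 10 hepatocyte markers were all higher in si-*Fndc1*, with a summed FPKM of 0.032 to 6.18 among control libraries against 49.6 to 181 among si-*Fndc1* libraries, and the part of this difference in the lncRNA results was not tested. All 5 adipocyte markers and all 4 neuronal markers were under 0.1 FPKM in every library, as were 4 of the 5 leukocyte markers. The 4 erythroid markers summed to 0.389 to 1.54 FPKM in si-Control and 1.29 to 2.38 FPKM in si-*Fndc1*, and of these *Alas2* alone was under 0.1 FPKM in every library.

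Sequences of the miRNAs carried by lncRNA genes that are described here are shown first, because several of the host transcripts were called. Mature miRNA sequences are from RefSeq (GRCm38.p6), with the seed (bases 2 to 8) in capitals. They are grouped by host, and what was measured is the host transcript, not the mature miRNA. *Gm28653* carries the muscle miRNAs miR-206 and miR-133b, and *Mir22hg* carries miR-22.
miR-206-3p: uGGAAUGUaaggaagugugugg
miR-133b-3p: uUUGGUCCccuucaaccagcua
miR-22-3p: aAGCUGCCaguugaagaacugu
*6720427I07Rik* carries 3 members of the let-7 family, which have the seed GAGGUAG, common to them and the rest of the family, and differ outside it.
let-7a-5p: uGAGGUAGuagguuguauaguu
let-7f-5p: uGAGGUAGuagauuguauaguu
let-7d-5p: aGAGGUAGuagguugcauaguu
The RefSeq gene body of *C430049B03Rik* holds miR-322, miR-503 and miR-351, while its gene body in the authors' table ends before them. The seed of miR-351 is also that of miR-125b, which lies in *Gm28119*.
miR-322-5p: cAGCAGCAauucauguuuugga
miR-503-5p: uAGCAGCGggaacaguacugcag
miR-351-5p: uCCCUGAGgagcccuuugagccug
miR-125b-5p: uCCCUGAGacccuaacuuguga
On GRCm38.p6, miR-206-3p lies at chr1:20679055-20679076 on the plus strand, miR-22-3p at chr11:75463772-75463793 on the plus strand, let-7a-5p at chr13:48538239-48538260 on the minus strand and miR-322-5p at chrX:53054306-53054327 on the minus strand.

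Most expressed lncRNA genes were scarce. The median gene was at 1.72 FPKM, 158 of the 261 genes were under 2 FPKM, and 21 reached 10 FPKM. The 10 most abundant genes held 44.3% of the summed FPKM. After *Malat1*, the highest mean levels were those of *Xist*, *Gm47015*, *Gm10076*, *2410006H16Rik*, *AI506816*, *Norad*, *Mir22hg*, *Gm15867* and *Gm14221*. The genes were also more variable between libraries than all genes tested, of which they are a part. The median coefficient of variation was 17.2% in si-Control and 16.1% in si-*Fndc1*, against 8.07% and 8.45% over all 13548 genes tested (mean of at least 0.5 FPKM), and the median transcript length was 1715 against 4227 bases. The median of the mean counts was lower as well (243.8 against 1754), and the part of counts in this spread was not tested.

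Between the groups, 33 lncRNA genes were higher and 26 were lower in si-*Fndc1* (edgeR's quasi-likelihood test, adjusted p under 0.05 over all genes tested). These are 59 of 261 genes, or 22.6%. The same test called 34.4% of all genes tested, 17.3% as higher and 17.2% as lower. At an unadjusted p under 0.05, 78 lncRNA genes passed. The normalised counts of the groups did not overlap for 38 genes, 24 of them higher and 14 lower in si-*Fndc1*, or 14.6% against 25.1% of all genes tested. The share of lncRNA genes that were called was thus below the background on both measures. The median lncRNA gene had a mean count of 243.8, against 1754 over all genes tested, and the part of counts in this share was not tested. The median log2 fold change was 0.07 over the lncRNA genes and 0.004 over all genes tested, and it was -0.005 over the lncRNA genes once the trend of counts with transcript length had been removed. Lower genes outnumbered higher ones among changes of at least 1.5-fold (14 higher, 18 lower) and with the threshold at 0.5 FPKM (42 higher, 44 lower). The count of lower genes was the less stable one, since it was 17 without si-*Fndc1* replicate 3 and also 17 without si-*Fndc1* replicate 4.

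**Figure D1:**
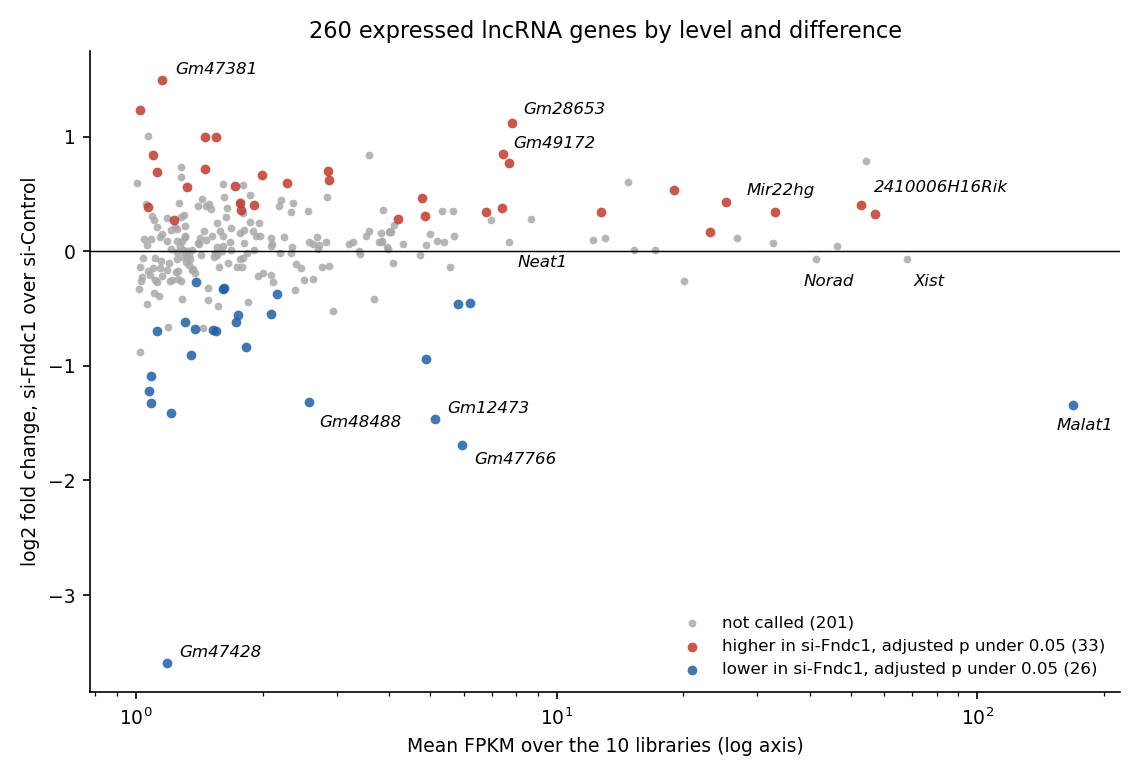
Mean FPKM over the 10 libraries (x, log axis) against the log2 fold change of si-Fndc1 over si-Control (y) for the lncRNA genes, 1 point a gene, with the 33 higher genes in red, the 26 lower genes in blue and the genes not called in grey. *Malat1* stands at the far right at -1.34 while *Xist* and *Norad* lie near 0, and most points lie below 2 FPKM. *Rps18-ps4*, which had 0 reads in all si-Fndc1 libraries, is not drawn.

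Of the genes that were called, 40 were called in the same direction in all 20 alternative fits (25 higher, 15 lower), and all 59 kept the sign of their difference. A mean of at least 1 FPKM was reached in both groups by 231 genes, of which 27 were higher and 19 lower. It was reached in si-Control alone by 18 genes and in si-*Fndc1* alone by 12 genes, and for these the level that made them members came from the group where they were high. By level, 17 of the 39 genes at 5 FPKM or more were called (12 higher, 5 lower), or 43.6%. From 2 to under 5 FPKM, 15.6% of 64 genes were called. From 1 to under 2 FPKM it was 32 of 158 genes (15 higher, 17 lower), or 20.3%. Over all genes tested, at any level, the share was 34.4%.

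*Malat1*, a nuclear RNA that collects in speckles near splicing factors, was by far the most abundant of the 261 genes and fell in si-*Fndc1*. In si-Control replicates 1 to 5 it was at 344, 224, 221, 215 and 207 FPKM, and in si-*Fndc1* replicates 1 to 5 at 104, 91.0, 88.3, 90.3 and 104 FPKM. The groups did not overlap, and si-Control replicate 1 was the highest library. The log2 fold change was -1.34 (SE 0.133, edgeR's quasi-likelihood test, adjusted p = 5.01e-05), and over the alternative fits it ran from -1.39 to -1.18. The gene (ENSMUSG00000092341) is listed on the minus strand of chr19:5845718-5852700 and overlaps no expressed gene in the table. For the coordinates of genes the table names no build, and the submitters' processing notes name GRCm39.

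Because of its level, *Malat1* set how much of each library the lncRNA genes took up. They held 0.555% to 0.676% of the counts of a control library but 0.471% to 0.499% of those of a si-*Fndc1* library, with no overlap. Without *Malat1* the shares were 0.385% to 0.432% (si-Control) and 0.402% to 0.429% (si-*Fndc1*), and these ranges overlapped. *Malat1* made up 28.3% to 39.6% of the lncRNA counts in si-Control, against 14.2% to 16.4% in si-*Fndc1*.

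The other nuclear lncRNAs on the list were not called. *Neat1*, the scaffold of paraspeckles and a neighbour of *Malat1* on chromosome 19, was at 7.51 ± 1.39 FPKM in si-Control and 7.90 ± 1.58 FPKM in si-*Fndc1* (SD, n = 5 each), a log2 fold change of 0.08 (SE 0.16, edgeR's quasi-likelihood test, adjusted p = 0.726). *Neat1* spanned 5.75 to 8.97 FPKM in si-Control and 6.07 to 9.76 FPKM in si-*Fndc1*, so its groups overlapped over most of their range. *Xist*, which coats the inactive X chromosome, was at 65.0 to 71.6 FPKM in si-Control and 63.1 to 69.3 FPKM in si-*Fndc1* (log2 fold change -0.07, adjusted p = 0.186). *Firre*, an X-linked RNA of nuclear organisation, was at 3.72 ± 0.757 and 3.91 ± 0.343 FPKM (log2 fold change 0.08, adjusted p = 0.683). Of the 4 genes on the list of nuclear structure and X inactivation, 1 was lower and 0 were higher, or 25.0% against 34.4% of all genes tested.

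Of the 4 genes on the list of cytoplasmic and stress-related lncRNAs, which also holds *Neat1*, *Oip5os1* alone was called. That is 25.0% of the list, against 34.4% of all genes tested. *Oip5os1*, also known as *Cyrano*, is a conserved RNA that promotes the decay of a miRNA. It was at 21.2 to 22.9 FPKM in si-Control and at 23.7 to 26.2 FPKM in si-*Fndc1*. All si-*Fndc1* libraries lay above all si-Control libraries, but the size was small (log2 fold change 0.17, SE 0.03, edgeR's quasi-likelihood test, adjusted p = 0.0024). *Norad*, which binds Pumilio proteins, was at 42.4 ± 4.27 and 40.3 ± 3.63 FPKM (log2 fold change -0.07, SE 0.08, adjusted p = 0.562). *Trp53cor1*, a target of p53, was at 1.18 ± 0.299 and 1.11 ± 0.146 FPKM (log2 fold change -0.08, adjusted p = 0.75).

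**Figure D2:**
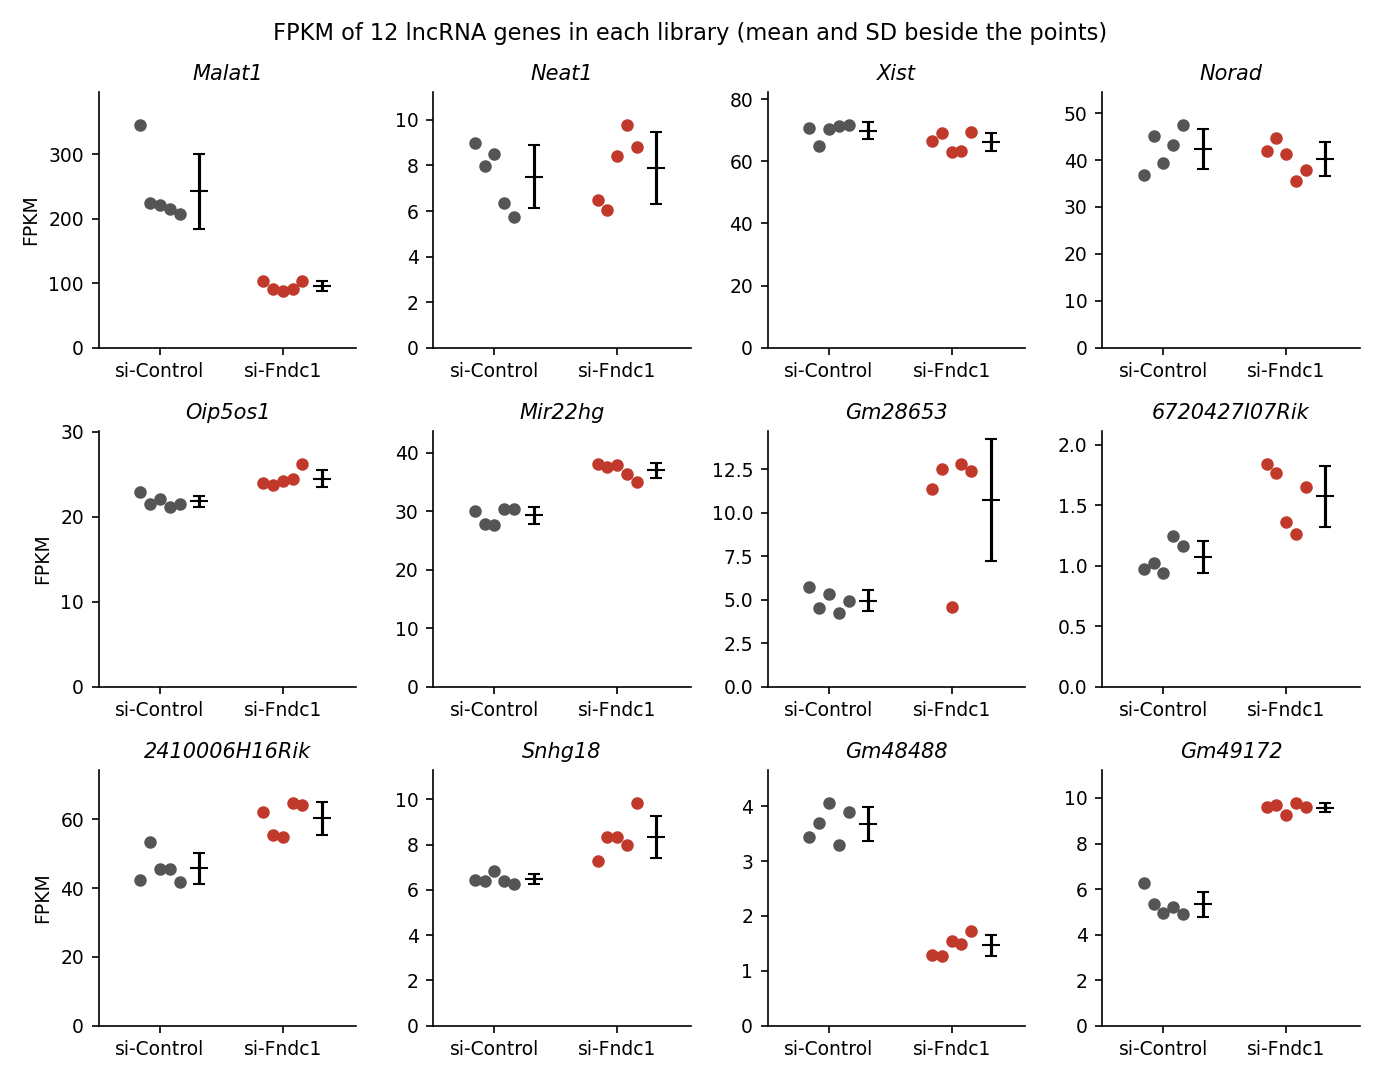
FPKM (y, from 0) of 12 lncRNA genes in the 5 si-Control (grey) and 5 si-Fndc1 (red) libraries, 1 point a library in the order of the replicate numbers, with the mean and SD beside the points. *Malat1* and *Gm48488* are lower in every si-Fndc1 library and *Oip5os1*, *Mir22hg*, *6720427I07Rik*, *2410006H16Rik*, *Snhg18* and *Gm49172* are higher in every one, while *Gm28653* has 1 si-Fndc1 library at the control level.

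*Gm28653*, the gene of the muscle RNA known as linc-MD1 and the host of miR-206 and miR-133b (sequences above), was called as higher in si-*Fndc1*. It was at 5.75, 4.53, 5.33, 4.21 and 4.91 FPKM in si-Control and at 11.4, 12.5, 4.56, 12.8 and 12.4 FPKM in si-*Fndc1*. Replicate 3 of si-*Fndc1* lay within the control range and the other 4 lay above it, so the groups overlapped. The log2 fold change was 1.12 (SE 0.24, edgeR's quasi-likelihood test, adjusted p = 0.00402), and the gene was called in all 20 alternative fits. The control libraries held 1889 to 2702 counts of it and the si-*Fndc1* libraries 1986 to 5674. The gene (ENSMUSG00000099906, plus strand of chr1:20740106-20754522) overlaps no expressed gene.

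Other miRNA hosts were also higher. *Mir22hg*, whose miRNA is present in many tissues and is abundant in muscle, was at 27.7 to 30.4 FPKM in si-Control and 35.0 to 38.0 FPKM in si-*Fndc1*, without overlap (log2 fold change 0.34, SE 0.04, edgeR's quasi-likelihood test, adjusted p = 0.000162). *6720427I07Rik*, with the 3 let-7 genes, was at 0.938 to 1.25 FPKM in si-Control and 1.26 to 1.84 FPKM in si-*Fndc1*, so that the lowest si-*Fndc1* library lay just above the highest si-Control library (log2 fold change 0.56, SE 0.12, adjusted p = 0.00488). *C430049B03Rik*, beside the miR-322 cluster, was at 1.26 to 1.75 FPKM and 2.08 to 2.73 FPKM (log2 fold change 0.66, SE 0.12, adjusted p = 0.00148). These genes were called in the same direction in all 20 alternative fits.

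Not all miRNA hosts went up. Inside the gene bodies of 12 lncRNA genes the table lists a miRNA on the same strand. Of these genes 3 were higher and 2 lower, or 41.7% against 34.4% of all genes tested, with a median log2 fold change of 0.17. The lower genes were *Gm15816* and *Gm20632* (6.74 against 4.89 FPKM, log2 fold change -0.45, adjusted p = 0.0135), and the miRNA in the latter has no symbol in the table. Of the 3 genes on the list of known miRNA hosts, *Gm28653* and *Mir22hg* were higher and *Dnm3os* was not called. *Gm15816*, which lies antisense within the ankyrin gene *Ank1* and carries *Mir3107*, was at 5.41 to 9.14 FPKM in si-Control and 4.05 to 5.88 FPKM in si-*Fndc1* (log2 fold change -0.45, SE 0.14, edgeR's quasi-likelihood test, adjusted p = 0.0286). It passed in 14 of the 20 alternative fits, and *Ank1* fell as well (4.86 against 3.51 FPKM, log2 fold change -0.46, adjusted p = 0.000224). *Gm28119*, with *Mir125b-1*, was at 1.78 ± 0.589 and 1.10 ± 0.284 FPKM and did not pass (log2 fold change -0.67, adjusted p = 0.0946). Its counts were only 21 to 58 a library.

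Hosts of snoRNAs, which guide the modification of ribosomal RNA and are cut from introns, had a positive log2 fold change for all 9 listed genes. Of these 9 genes 2 passed, or 22.2% against 34.4% of all genes tested. With the trend of counts with transcript length removed, *Snhg3* turned to -0.04 and *Snhg6* went from 0.18 to 0.06, and the other 7 stayed positive. *2410006H16Rik*, with *Snord49a*, *Snord49b* and *Snord65*, was at 42.2, 53.4, 45.6, 45.5 and 42.0 FPKM in si-Control and at 62.3, 55.4, 54.9, 64.7 and 64.1 FPKM in si-*Fndc1*. The groups came close but did not overlap (log2 fold change 0.40, SE 0.08, edgeR's quasi-likelihood test, adjusted p = 0.00235). *Snhg18*, with *Snord123*, was at 6.26 to 6.84 FPKM in si-Control and 7.28 to 9.83 FPKM in si-*Fndc1* (log2 fold change 0.38, SE 0.08, adjusted p = 0.00318).

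*Snhg12* was at 2.38 ± 0.684 FPKM in si-Control and 3.30 ± 0.388 FPKM in si-*Fndc1* and missed the threshold (log2 fold change 0.47, edgeR's quasi-likelihood test, adjusted p = 0.0577). *Epb41l4aos*, *Snhg20*, *Snhg6*, *Snhg15*, *Snhg16* and *Snhg3* were not called either, with log2 fold changes of 0.08 to 0.36. The median over the 9 listed hosts was 0.18, against 0.004 over all genes tested. A further 7 snoRNA hosts carry a second type in the table and are not among the 261 genes. Of these, *1110038B12Rik* (18.5 against 23.6 FPKM, log2 fold change 0.36, adjusted p = 6.69e-05), *Zfas1* (11.2 against 14.6 FPKM, 0.39, adjusted p = 0.000777) and *Snhg8* (16.1 against 19.1 FPKM, 0.26, adjusted p = 0.0329) were higher, while *Gas5*, *Snhg1*, *Snhg5* and *Snhg17* were not called. The share called among these 7 was 42.9%, against 34.4% of all genes tested.

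The start regions of these hosts are shown because snoRNA host transcripts are known to begin with a run of pyrimidines. Of the 261 genes, 150 matched RefSeq by symbol and 117 have a start sequence there (GRCm38.p6). Each line gives the 15 bases before and the 15 bases from the listed start, on the strand of the transcript. Capitals mark a C within 5 bases of the start that is followed by at least 4 more C or T.
*2410006H16Rik*: tcacgcgccgtCTTTCTCTgcggccatcat
*Snhg18*: accttcccaggCCCCTCCTCTagccccgcc
*Snhg12*: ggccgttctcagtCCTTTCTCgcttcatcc
*Snhg3*: tagtcgaccacgcctgaCTTCCgggcgtta
*Snhg20*: cttcagttccggccggaagtgcatttgcag
*Snhg15*: cgctgctgtgaccgtaactttaagcacacg
*Snhg16*: actgcgcgcaagcgcgatctcgtcctttcc
The windows lie at chr11:62602862-62602891 (plus strand) for *2410006H16Rik*, chr15:32244648-32244677 (minus strand) for *Snhg18* and chr4:132308663-132308692 (plus strand) for *Snhg12*. The tract was found in 4 of the 7 hosts with a window, in 31 of the 117 lncRNA genes with one (26.5%) and in 21.2% of the 27025 genes in the RefSeq table. A wider distance from the start had been planned, under which the run near the end of the *Snhg16* window would also match. The shares under that rule were not obtained. Only the transcript's strand was searched, and the match is a description of these letters.

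**Figure D3:**
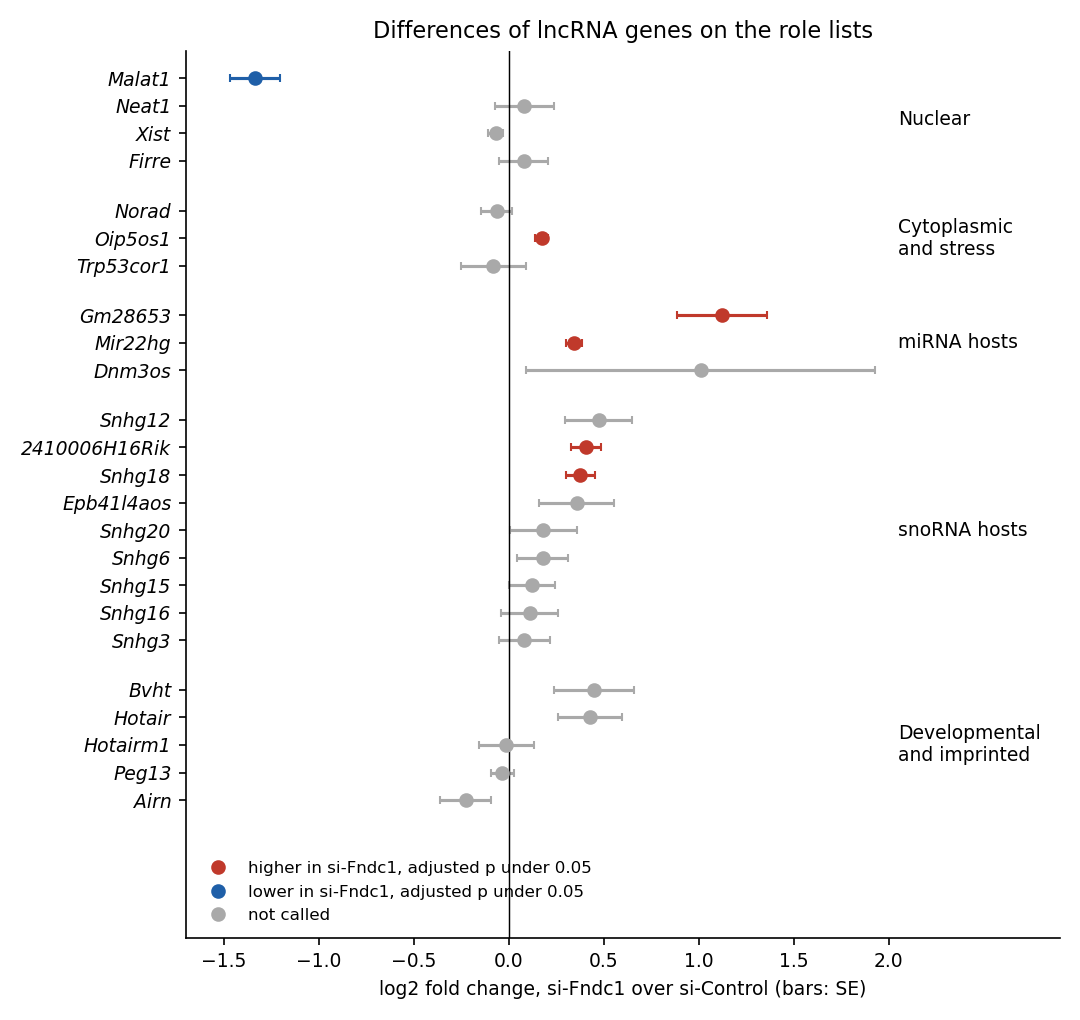
Log2 fold change of si-Fndc1 over si-Control (x, bars are SE) for lncRNA genes on the lists of nuclear, cytoplasmic, miRNA host, snoRNA host and developmental genes (rows), in red or blue where the adjusted p was under 0.05 and in grey otherwise. *Malat1* stands alone on the left, all 9 snoRNA hosts lie to the right of 0 (*Snhg3* turns to -0.04 once the length trend is removed), and *Dnm3os* has the widest error.

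Developmental and imprinted lncRNAs showed no called change, with 0 of 6 listed genes passing edgeR's quasi-likelihood test and 1 of them under an unadjusted p of 0.05. The test called 34.4% of all genes tested. *Bvht*, known from heart progenitors, was at 1.87 ± 0.521 and 2.55 ± 0.451 FPKM (log2 fold change 0.45, adjusted p = 0.127). *Hotair*, from the *Hoxc* cluster, was at 1.51 ± 0.356 and 2.02 ± 0.248 FPKM (0.43, adjusted p = 0.0712). *Hotairm1* of the *Hoxa* cluster (-0.01, adjusted p = 0.955), *Peg13* (-0.03, adjusted p = 0.712) and *Airn*, the imprinted antisense RNA of *Igf2r* (-0.23, adjusted p = 0.214), were closer to 0. Among 17 genes whose symbol marks them as opposite-strand, 2 were higher and 1 was lower, or 17.6% against 34.4% of all genes tested. These were *Oip5os1*, *Cep83os* (0.927 against 1.21 FPKM, log2 fold change 0.39, adjusted p = 0.0114) and *Foxd2os* (1.80 against 1.44 FPKM, log2 fold change -0.32, adjusted p = 0.0236, passed in 16 of 20 alternative fits). *Chrna1os*, opposite to a subunit gene of the muscle acetylcholine receptor, was at 1.28 ± 0.387 and 1.93 ± 0.317 FPKM (log2 fold change 0.58, adjusted p = 0.0593).

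The largest falls without overlap were mostly in genes that lie opposite to another gene, and all of these genes but *Malat1* are known by an identifier alone. *Gm47428* was at 0.912 to 3.96 FPKM in si-Control and at 0 reads in 2 of the si-*Fndc1* libraries, with 0.743 FPKM in the highest of the others, which is si-*Fndc1* replicate 2 (log2 fold change -3.60, SE 0.92, edgeR's quasi-likelihood test, adjusted p = 0.0113). Its alternative fits ran from -6.05 to -1.41, so the size is poorly known. *Gm47766*, opposite to the actinin gene *Actn1*, was at 5.63 to 12.3 FPKM in si-Control and 2.06 to 3.95 FPKM in si-*Fndc1* (log2 fold change -1.69, SE 0.26, adjusted p = 0.000715). *Gm12473*, opposite to the natriuretic peptide receptor gene *Npr2*, was at 5.64 to 10.3 FPKM and 1.78 to 3.23 FPKM (log2 fold change -1.46, SE 0.20, adjusted p = 0.000315).

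*Gm48488* had the smallest adjusted p among the genes named here. It was at 3.44, 3.69, 4.05, 3.29 and 3.89 FPKM in si-Control and at 1.29, 1.27, 1.54, 1.49 and 1.72 FPKM in si-*Fndc1*, far apart and with little spread within a group. The log2 fold change was -1.32 (SE 0.09, edgeR's quasi-likelihood test, adjusted p = 1.21e-05). It lies on the plus strand of chr13:60324496-60329914, opposite to *Gas1*, a growth arrest gene whose listed start is 683 bases away. *Gas1* itself was at 48.5 and 50.1 FPKM and was not called (log2 fold change 0.05, adjusted p = 0.36). *Gm28536* (-1.09), *Gm8066* (-0.94), *Gm10638* (-0.83), *Gm44710* (-0.70) and *Gm48623* (-0.69) complete the 10 largest falls without overlap. *Gm44710* was called in only 11 of the 20 alternative fits.

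The largest rises are likewise given among called genes whose groups do not overlap, which leaves out *Gm28653* (1.12), *2900009J06Rik* (1.0) and *Gm15934* (0.72). Several of the extreme genes, among them *Gm47428*, *Gm47381* and *2900093K20Rik*, reached 1 FPKM in 1 group alone, so they are listed here through the group in which they are high. *Gm47381* was at 0.464 to 0.718 FPKM in si-Control and 1.11 to 2.37 FPKM in si-*Fndc1* (log2 fold change 1.5, SE 0.25, edgeR's quasi-likelihood test, adjusted p = 0.000937), on counts of 35 to 54 against 85 to 180. *2900093K20Rik* followed at 0.267 to 0.841 against 0.887 to 2.34 FPKM (log2 fold change 1.23, adjusted p = 0.0159), and then *BC002059* at 0.722 to 1.43 against 1.87 to 2.34 FPKM (log2 fold change 1.0, adjusted p = 0.00414). *Gm49172* was the clearest rise. It was at 6.27, 5.33, 4.93, 5.23 and 4.91 FPKM in si-Control and at 9.59, 9.70, 9.23, 9.76 and 9.62 FPKM in si-*Fndc1*. Its groups were widely apart (log2 fold change 0.85, SE 0.08, adjusted p = 3.83e-05).

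*Gm49172* lies within *Ano6*, a gene of a membrane scramblase on the other strand, which fell (11.5 against 9.54 FPKM, log2 fold change -0.27, edgeR's quasi-likelihood test, adjusted p = 0.00078). *Gt(ROSA)26Sor*, the transcript of the ROSA26 locus used for transgenes, was at 1.80 to 2.57 FPKM in si-Control and 2.99 to 4.09 FPKM in si-*Fndc1* (log2 fold change 0.70, SE 0.12, adjusted p = 0.00143). *Gm16062* (0.84), *Gm16973* (0.69), *C430049B03Rik* (0.66), *Gm17066* (0.62) and *Gm29233* (0.57) complete the 10 largest rises without overlap. *Gm17066* was called in 17 and *Gm29233* in 12 of the 20 alternative fits. *Gm29233* lies inside *Thbs1* and had 0.156% of its FPKM, and the 2 genes were called in opposite directions (*Thbs1* 1186 against 1020 FPKM, log2 fold change -0.21, adjusted p = 0.000643).

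Position relative to other genes was recorded from the table's coordinates. No expressed gene overlapped 124 lncRNA genes, of which 18 were higher and 7 lower. A gene on the opposite strand alone overlapped 105, of which 10 were higher and 17 lower, and a gene on the same strand overlapped 32, of which 5 were higher (*2410006H16Rik*, *Mir22hg*, *Snhg18*, *Gm17066* and *Gm43031*) and 2 lower (*A730017L22Rik* and *B930095G15Rik*). The share called was 20.2% without overlap, 25.7% with the opposite strand alone and 21.9% with the same strand, against 34.4% of all genes tested. The lower lncRNA genes were thus mostly opposite-strand ones, 17 of 26, and the difference between the position classes was not tested. Since the kit does not mark strand, reads of a lncRNA gene and of the gene opposite to it cannot be told apart where they overlap.

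Each lncRNA gene was therefore set beside its protein-coding neighbour. On the opposite strand 104 overlapping pairs were found, for 96 lncRNA genes, and the lncRNA gene was called in 25 pairs and the neighbour in 57. The background was 34.4% of all genes tested. Both genes were called in 17 pairs, 13 in the same direction and 4 in opposite directions, and in 8 pairs the lncRNA gene alone was called. The neighbour was thus called in 17 of the 25 pairs with a called lncRNA gene and in 57 of all 104 pairs, and whether the calls of a pair go together was not tested. The median lncRNA gene was at 14% of the FPKM of its neighbour. Pairs with both genes lower included *Gm47766* with *Actn1* (68.4 against 58.3 FPKM, log2 fold change -0.22), *Gm12473* with *Npr2* (8.04 against 6.92 FPKM, -0.21) and *Gm28536* with *Stk25* (20.4 against 18.4 FPKM, -0.15). In these 3 pairs the lncRNA gene had the larger difference, whereas *Gm15816* (-0.45) and *Ank1* (-0.46), both lower as well, differed by about the same amount. Pairs with both genes higher included *Gm16062* with *Cops3* (0.35), *Gm16973* with *Mphosph8* (0.31) and *Gt(ROSA)26Sor* with *Thumpd3* (0.29). The opposite directions were those of *Gm49172* with *Ano6*, *Gm29233* with *Thbs1*, *Gm10638* with *Siah1a* (0.23 for *Siah1a*) and *Gm44710* with *Med29* (0.31 for *Med29*).

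Head-to-head pairs, with start sites on opposite strands within 5000 bases and no overlap, numbered 45, for 44 lncRNA genes. The lncRNA gene was called in 9 of the 45 pairs and the neighbour in 15, against a background of 34.4% of all genes tested. Both genes were called in 3 pairs, 2 in the same direction and 1 in opposite directions, so the neighbour was called in 3 of 9 pairs with a called lncRNA gene and in 15 of 45 overall. *Cep83os* and *Cep83* (4.00 against 4.66 FPKM, log2 fold change 0.23) were both higher, and *A330074K22Rik* (-0.38) and *Gse1* (-0.58) both lower. *Snhg18* was higher while *Sema5a*, an axon guidance gene whose start lies 148 bases away, was lower (5.24 against 4.54 FPKM, log2 fold change -0.20, edgeR's quasi-likelihood test, adjusted p = 0.0036).

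**Figure D4:**
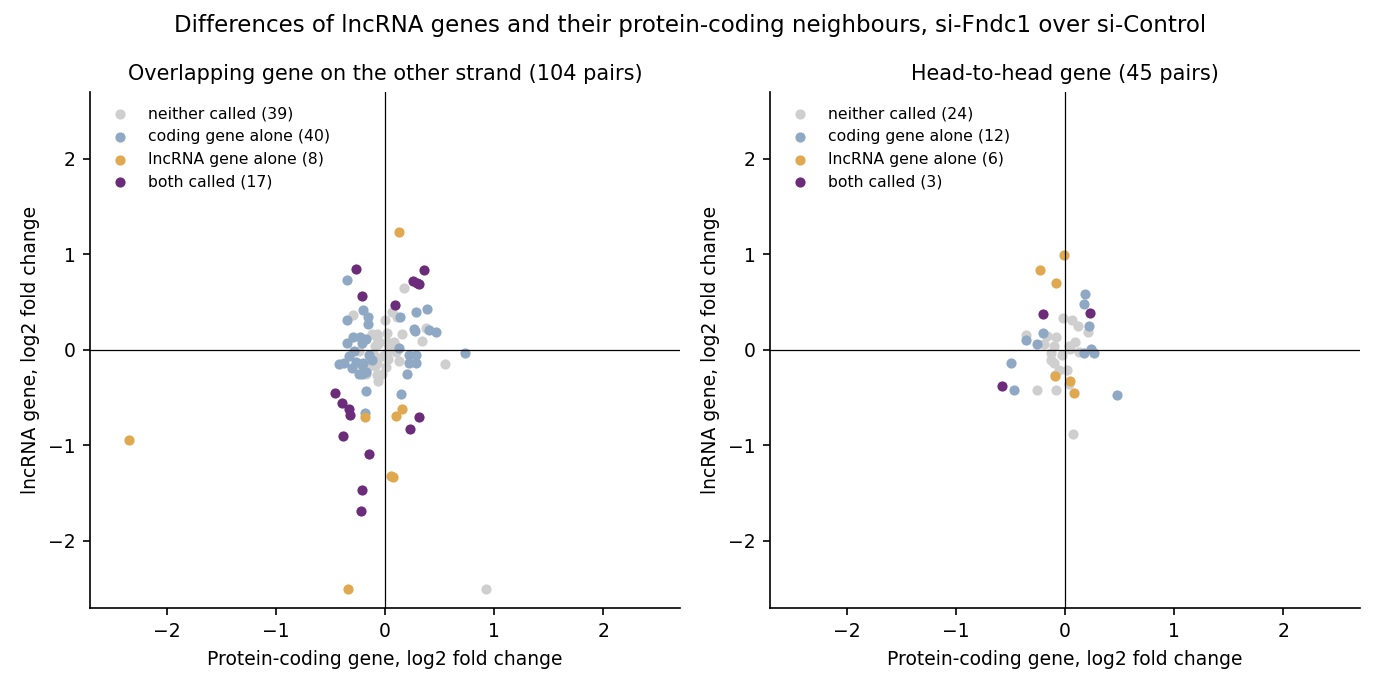
Log2 fold change of si-Fndc1 over si-Control for the protein-coding neighbour (x) and the lncRNA gene (y), for 104 pairs that overlap on opposite strands (left) and 45 head-to-head pairs (right), coloured by which gene of the pair was called. Pairs with both genes called (17 left, 3 right) lie mostly in the quadrants of equal sign, 13 and 2 of them, and *Gm47428* and *Rps18-ps4* lie below the axis and are drawn at its lower edge.

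A few lncRNA genes ranged widely between libraries of the same group. A range of 10-fold or more within a group whose highest library reached 1 FPKM was found for 10 genes. *Gm47428* also ranged that widely in si-*Fndc1*, below 1 FPKM, and 5 genes, *Rps18-ps4*, *Gm49890*, *E130102H24Rik*, *Gm47428* and *Gm10503*, had 0 reads in at least 1 library. *Rps18-ps4*, which carries a pseudogene name, was at 208 FPKM in si-Control replicate 3, at 2.66 FPKM in si-Control replicate 1 and at 0 reads in the other 8 libraries. *Gm53015* was at 12.9 and 13.5 FPKM in si-Control replicates 1 and 2 and at 13.7 and 15.7 FPKM in si-*Fndc1* replicates 2 and 5, and at 0.0768 to 0.544 FPKM elsewhere. *Gm26532* was at 9.77 to 16.5 FPKM in 9 libraries and at 0.187 FPKM in si-*Fndc1* replicate 4.

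Hosts of miRNAs were among these genes. *Gm49890*, with *Mir31*, had 0 reads in si-Control replicates 3 and 5 and 0.616 FPKM in si-*Fndc1* replicate 2, against 3.11 to 5.80 FPKM in the other libraries. *Dnm3os*, with *Mir214* and *Mir199a-2*, ran from 0.216 to 2.55 FPKM in si-Control and from 0.264 to 4.13 FPKM in si-*Fndc1* (log2 fold change 1.01, SE 0.92, edgeR's quasi-likelihood test, adjusted p = 0.43). *E130102H24Rik*, with *Mir101a*, had 0 reads in si-Control replicate 4 and in si-*Fndc1* replicate 1. *Rps18-ps4*, *Gm53015*, *Gm26532*, *Gm49890*, *Dnm3os* and *E130102H24Rik* did not pass edgeR's test. Over the genes with reads in every library, 33 were higher and 25 lower.

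**Figure D5:**
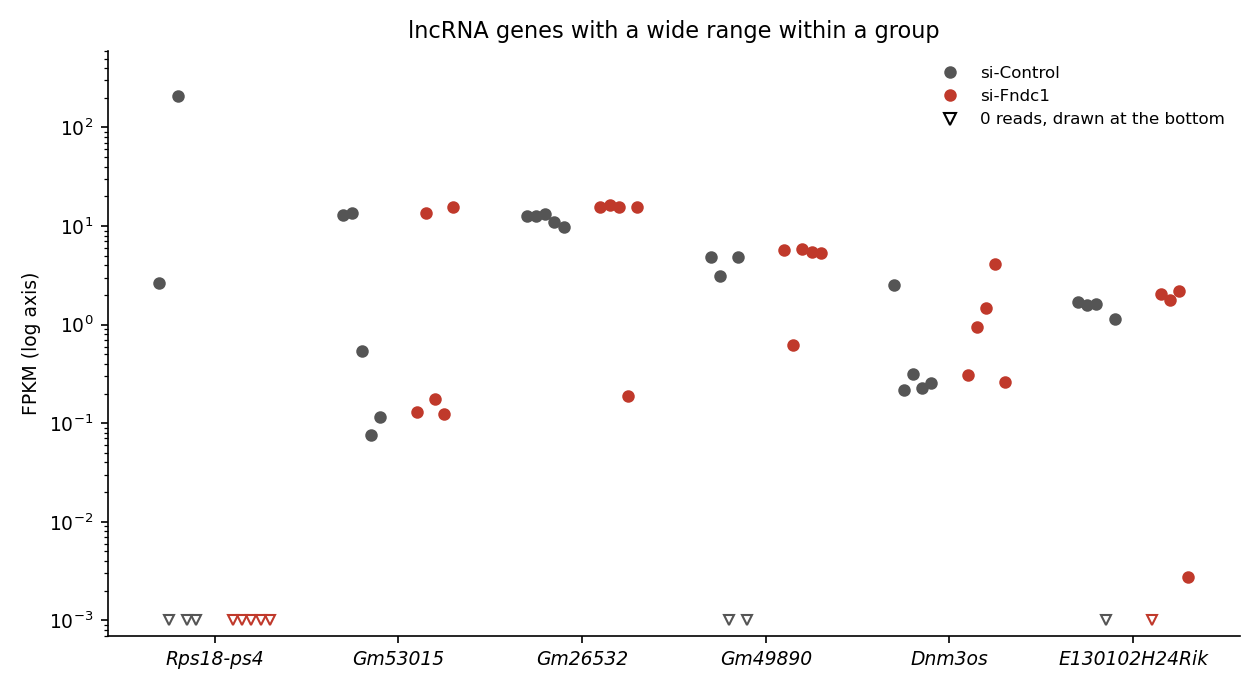
FPKM (y, log axis) of 6 lncRNA genes in the 5 si-Control (grey) and 5 si-Fndc1 (red) libraries, with libraries at 0 reads drawn as open triangles at the bottom. *Gm53015* is near 13 FPKM in 2 libraries of each group and under 1 FPKM in the rest, and *Rps18-ps4* reaches 208 FPKM in 1 library.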

How the data were processed

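Poly(A) RNA of C2C12 cells was sequenced in 10 libraries, 5 si-Control and 5 si-*Fndc1*, and grouped by the labels. The paper's methods name 4 libraries without saying which, so all 10 were used. The authors deposited raw counts per gene, and beside each count an FPKM value that divides it by transcript length and library total and is listed as 0.0001 where no read was counted. The paper names TopHat, mm10 and htseq-count, the series text STAR and mm9, and the submitters' processing notes cutadapt 1.9, FastQC and GRCm39. No column of values per library was left without a sample (0 columns).

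For the main comparison, edgeR 4.0.16 under R 4.3.3 was applied to the deposited counts (TMM scaling, quasi-likelihood F test) over all 13548 genes with a mean of at least 0.5 FPKM, with Benjamini-Hochberg adjustment over all of them and calls at an adjusted p under 0.05. The SE is the log2 fold change divided by the square root of F. The fit was tested on simulated data. DESeq2 1.42.0 and limma 3.58.1 on log2(FPKM + 1) and log2(FPKM + 0.1) were alternatives. Python 3.11.15, pandas 2.3.3 and numpy 2.4.6 were used for the tables. Counting precision is set by totals of at least 56332844 counts, and lncRNA genes had a mean count of at least 24.

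The genes and lists were chosen with earlier results of these data known. Named genes are those on the lists, the 10 largest rises and falls among called genes without overlap, the 10 most abundant genes, the 3 genes on each side of the threshold, and their neighbours. *6720427I07Rik*, *Rps18-ps4*, *Gm53015*, *Gm26532*, *Gm49890*, *E130102H24Rik*, *Gm28119*, *Gm15816*, *Gm20632*, *Gm43031*, *A730017L22Rik*, *B930095G15Rik*, *A330074K22Rik*, *2900009J06Rik*, *Gm15934* and the snoRNA hosts of a second type were named after their values were seen. So was *C430049B03Rik*, which is also among the 10 largest rises. Genes typed as lncRNA and also as another type (22 genes) were not members. The search for outlying libraries and the counts of alternative settings below cover 72 lncRNA genes. These include *B020010K11Rik*, which was picked after its values were seen and is not described here. They leave out *E130102H24Rik*, *Gm20632*, *Gm43031*, *A730017L22Rik*, *B930095G15Rik*, *A330074K22Rik*, *2900009J06Rik*, *Gm15934* and the snoRNA hosts of a second type.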

Additional observations from a re-analysis of the deposited data

Results flagged for a closer look

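In 14 of 144 groups of 5 libraries, over 72 lncRNA genes, 1 library stood far from the other 4 (Dixon's test at the 95% level). Chance gives about 1 in 20 groups, but some genes, among them *Rps18-ps4*, *Gm26532* and *Gm49890*, were named after their values were seen. The 14 groups can therefore not be set against that rate, and no cause was tested. *Malat1* was at 344 FPKM in si-Control replicate 1 (others 207 to 224 FPKM), and *Xist* was at 65.0 FPKM in si-Control replicate 2 (others 70.4 to 71.6 FPKM). *Gm28653* was at 4.56 FPKM in si-*Fndc1* replicate 3 (others 11.4 to 12.8 FPKM), as was *Epb41l4aos* at 4.17 FPKM in the same library (others 6.24 to 6.92 FPKM).

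*Rps18-ps4* was at 208 FPKM in si-Control replicate 3, and *Gm26532* at 0.187 FPKM in si-*Fndc1* replicate 4. *Gm49890* was at 0.616 FPKM and *Gm47428* at 0.743 FPKM in si-*Fndc1* replicate 2. *Dnm3os* was at 2.55 FPKM, *Gm47283* at 2.14 FPKM and *Gm10503* at 0.0001 FPKM (0 reads) in si-Control replicate 1. *Gm10638* was at 2.78 FPKM and *Snhg16* at 1.23 FPKM in si-Control replicate 3, and *Rab26os* was at 3.30 FPKM in si-*Fndc1* replicate 1.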

How the results depend on the processing

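Of the comparisons of the 72 lncRNA genes defined above with an alternative setting, 1386 kept their side of the threshold. Genes that were not called could change sign among these, as did *Xist* (log2 fold change -0.07 in the main fit, 0.04 with the length offset). A further 23 newly passed, 30 no longer passed and 0 reversed a call. Without each library in turn, the higher genes numbered 30 to 35 and the lower genes 17 to 23, with 17 both without si-*Fndc1* replicate 3 and without si-*Fndc1* replicate 4. Restricting the genes moved the counts by construction. Among genes that overlap no expressed gene 18 were higher and 7 lower, at a mean of at least 2 FPKM 18 and 9, and at 5 FPKM 12 and 5. Lower genes outnumbered higher ones at a mean of at least 0.5 FPKM (42 higher, 44 lower) and among changes of at least 1.5-fold (14 higher, 18 lower). With the 22 genes of a second type (chosen after seeing the data) 37 were higher and 26 lower. The same replicate numbers did not pair the libraries, since the correlations of their deviations were -0.0553 to 0.0643 and 2 of 10 libraries correlated best with their own number. With the replicate block 31 were higher and 20 lower, and 47 of the 59 called genes passed. DESeq2 called 57 of the 59 and the fit with the length offset 52. A correction for GC content was not run, because 45.2% of the genes have a GC value in the reference. Low counts limit the genes near 1 FPKM.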
